A study of Mus musculus with 8 samples.

Results

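The Ifi200 genes of mouse chromosome 1 encode PYHIN proteins, which typically join a pyrin domain, used for contacts with other proteins, to a HIN domain, which binds double-stranded DNA. The 10 genes described here are Aim2, Ifi203, Ifi204, Ifi206, Ifi208, Ifi209, Ifi211, Ifi213, Ifi214 and Mndal, out of 25078 gene rows in the deposited tables. They were chosen by name from this cluster because of their values in STAT3-deficient against wild-type T cells, so those values are given as a description and carry no test. All 10 had counts high enough to enter the fit, which covered 12428 genes.

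RNA was sequenced from donor T cells of the spleen on day 6 after allogeneic hematopoietic cell transplantation (HCT). The donors were C57BL/6 mice, either wild type (WT) or Stat3 fl/fl CD4-Cre (STAT3KO), and the irradiated recipients in every group were WT BALB/c mice, which also received T cell-depleted bone marrow of C57BL/6 donors. CD4+ and CD8+ T cells were sorted as H-2Kb+ TCRβ+ cells, so each genotype gave CD4 and CD8 libraries, 8 in all in 4 groups of 2 replicates. The Cre recombinase is driven by Cd4 regulatory sequences and is therefore active from the stage at which developing T cells carry both coreceptors, and each library pools lymphocytes of 3 recipients, per the study's methods. The ages of the mice were not given in the labels. The libraries held between 20171396 and 23282757 counts. Stat3 had 428 to 436 CPM (counts divided by the TMM-adjusted size of the library) in the WT libraries and 120 to 143 CPM in the STAT3KO libraries, so the labels and the targeted gene went together. Because these are bulk samples, fewer cells with a transcript and less transcript per cell cannot be told apart.

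AIM2 binds cytosolic DNA and recruits the adaptor ASC (Pycard) and caspase-1 to form an inflammasome. Ifi204 encodes p204, a DNA-binding protein that has been linked to STING and to type I interferon production, and which also takes part in the control of cell growth and differentiation. Most of the family are induced by interferons, whose signal acts through transcription factors that bind interferon-stimulated response elements. For Ifi208, Ifi209, Ifi211, Ifi213 and Ifi214 little is established beyond their place in the family.

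The 10 genes lie on chromosome 1 within 522069 bases (mm10, 173420604 to 173942672). In this order along the chromosome they are Aim2, Ifi206, Ifi214, Ifi213, Ifi209, Ifi208, Ifi204, Mndal, Ifi211 and Ifi203. Aim2, Ifi209 and Ifi208 are on the plus strand and the others on the minus strand, and all are annotated as protein coding in GENCODE M21. Aim2 spans 173420604 to 173466036, Ifi204 spans 173747294 to 173766919, and Mndal spans 173857220 to 173880187. Ifi203, at 173920401 to 173942672, shares 37 exon bases with Mndal on the same strand, and Mndal also shares exon bases with Gm38050.

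The paralogs share sequence, which bears on how well reads can be assigned. Among all 51-base words of a gene's annotated transcripts (the length of the reads), the share also found in transcripts of another gene was 0.628% for Aim2 and 72.4% for Ifi211. Ifi211 shared 44.5% of its words with Ifi205 and 29.8% with Ifi204. Ifi209 shared 32.8% of its words with Ifi214, and Ifi208 shared 17.6% with Ifi213. For the remaining genes the total share lay between 12.0% (Ifi203) and 25.2% (Ifi206). For Ifi214 that share is taken over 8149 words of GENCODE transcripts, of which 1162 were shared with Ifi209. The deposited exon length of Ifi214 is only 1294 bases, so the share of the sequence counted may be much larger. Levels of Ifi211, possibly of Ifi214, and to a lesser degree of the other paralogs are uncertain to that extent. How reads that match several genes were counted is not given in the sources used here.

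Promoters were listed in the RefSeq table (GRCm38.p6) for 9 of the 10 genes. The letters GAAANNGAAA, a form of the interferon-stimulated response element, were searched on both strands in the 250 bases before each start site. At any of their listed start sites they were present for 7 of the 9 genes, against 3.46% of the 27025 genes in the table counted in the same way (2.98% of its 32851 promoters). At the start site of the counts table, which was listed for 8 of the genes, 5 had a match. The match is shown in capitals with 10 bases on either side, 5′ to 3′ on the strand of the gene, for these 7 members and for Ifi207, a neighbour within the cluster that is not a member.
Ifi206: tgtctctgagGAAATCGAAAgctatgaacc
Ifi214: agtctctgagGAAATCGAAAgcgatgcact
Ifi213: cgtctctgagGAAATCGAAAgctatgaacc
Ifi208: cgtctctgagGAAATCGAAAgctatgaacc
Mndal: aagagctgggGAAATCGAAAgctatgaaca
Ifi203: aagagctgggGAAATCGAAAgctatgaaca
Ifi211: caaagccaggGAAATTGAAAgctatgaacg
Ifi207: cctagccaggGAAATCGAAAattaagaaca

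These windows lie on the minus strand at chr1:173491339-173491368 (Ifi206), chr1:173536017-173536046 (Ifi214), chr1:173599326-173599355 (Ifi213), chr1:173880204-173880233 (Mndal), chr1:173942508-173942537 (Ifi203), chr1:173913064-173913093 (Ifi211) and chr1:173741831-173741860 (Ifi207). The window of Ifi208 is on the plus strand at chr1:173673597-173673626. The match began between 35 and 79 bases before the start site. The windows of Ifi213 and Ifi208 were identical over 30 bases, as were those of Mndal and Ifi203, and of the 7 members only Ifi211 had GAAATTGAAA where the others had GAAATCGAAA. For Ifi203 the match belonged to the second of 2 listed start sites, for Ifi208 to a start site 15 bases from that of the counts table, and Mndal had a further match on the opposite strand at its second start site. No match was found for Aim2 or Ifi209. The letters TTCNNNGAA, a form of the site bound by STAT dimers, were present for 0 of the 9 genes and for 8.13% of all genes (7.02% of all promoters). No window therefore held both patterns, and a match or its absence describes these letters only. Of the cluster genes that are not members, Ifi202b had a TTCNNNGAA match 148 bases before its start and no GAAANNGAAA match. Ifi205, which had hardly any counts, had GAAATTGAAA 134 bases before its start.

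The members differed widely in level before any effect of genotype. Levels of different genes were compared as RPKM, which divides by exon length. In WT CD4 T cells, Mndal had 85.4 and 87.4 RPKM and Ifi203 had 45.6 and 39.0 RPKM (replicates 1 and 2). Ifi209 followed with 36.3 and 34.6 RPKM. Ifi208, Ifi206, Aim2 and Ifi204 came next, with means of 28.02 ± 0.24, 27.7 ± 1.26, 26.0 ± 6.02 and 24.6 ± 2.85 RPKM (SD, n = 2), and adjacent genes in this order overlapped. Ifi213 and Ifi214 overlapped at 9.36 ± 0.12 and 8.003 ± 2.05 RPKM, and Ifi211 was lowest at 4.22 ± 0.018 RPKM. The highest gene exceeded the lowest by 20.2 and 20.8 times in the WT CD4 libraries. This order rests on the exon lengths of the deposited table, which gives Ifi214 1294 exon bases where GENCODE M21 gives 8107. Divided by the GENCODE lengths, an alternative chosen after seeing the data, Ifi214 was lowest in WT CD4 T cells at 1.28 ± 0.34 CPM per kilobase and Ifi211 ninth at 4.23 ± 0.066. Mndal then kept the highest mean in each of the 4 groups, although Ifi203 lay above it in STAT3KO CD8 replicate 2. In WT CD4 T cells Ifi203 then took rank 4 at 30.8 ± 3.74, after Ifi209 (34.9 ± 1.59) and Ifi206 (32.3 ± 1.84), which it overlapped. It kept rank 2 in the other groups.

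**Figure D1:**
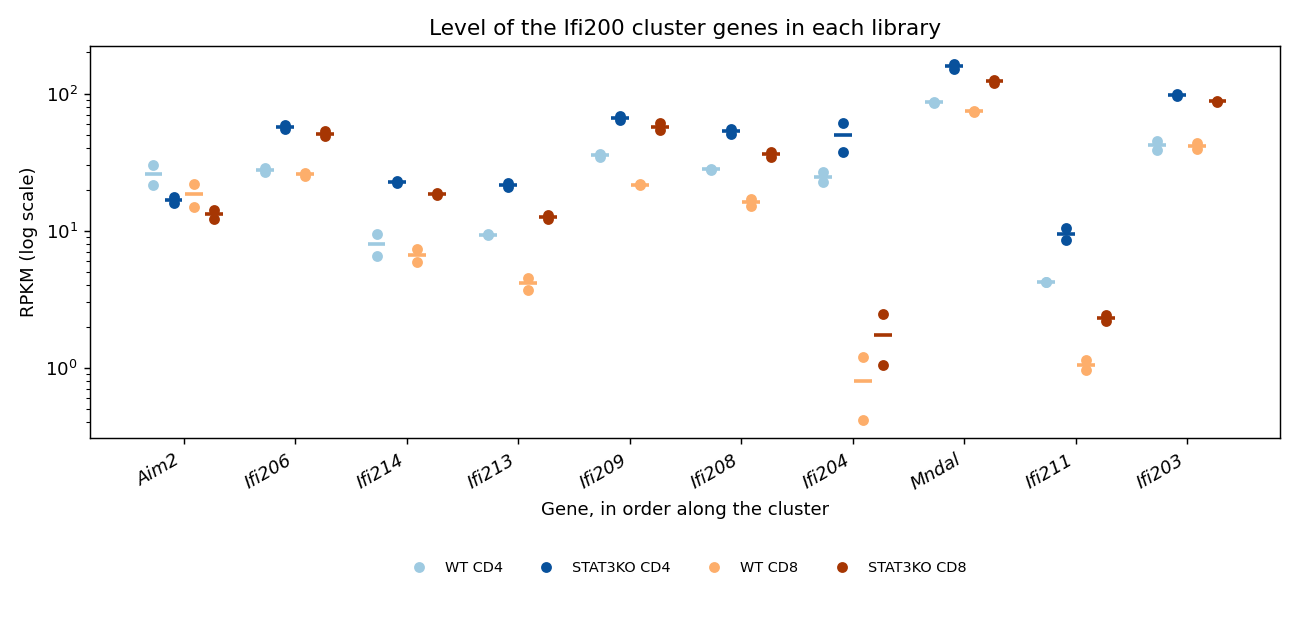
RPKM on a log scale for each of the 10 genes, in order along the cluster, with 1 point for each library and a line at the mean of the 2 replicates of a group. Mndal was highest in each library, and Ifi204 lay between 22.6 and 61.4 RPKM in CD4 T cells but between 0.414 and 2.46 RPKM in CD8 T cells.

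In WT CD8 T cells the order at the top was again Mndal (74.6 ± 0.52 RPKM) and Ifi203 (41.7 ± 2.94 RPKM), but the lower end differed. Ifi206, Ifi209, Aim2 and Ifi208 followed at 25.9 ± 0.87, 21.7 ± 0.16, 18.5 ± 4.93 and 16.1 ± 1.48 RPKM, where Aim2 overlapped both of its neighbours. Ifi214 and Ifi213 stood apart from each other at 6.68 ± 1.03 and 4.13 ± 0.57 RPKM. Ifi204 stood at 0.803 ± 0.55 and Ifi211 at 1.05 ± 0.11 RPKM there, with overlapping libraries. The highest gene exceeded the lowest by 179 and 77.1 times in the WT CD8 libraries, and by 120 and 50.0 times in the STAT3KO CD8 libraries. In STAT3KO CD4 T cells Aim2 was ninth in the order at 16.8 ± 1.08 RPKM, below Ifi214 (22.7 ± 0.67 RPKM) and Ifi213 (21.6 ± 1.04 RPKM), with no overlap to either. In STAT3KO CD8 T cells Aim2 (13.2 ± 1.49 RPKM) overlapped Ifi213 (12.6 ± 0.52 RPKM) and lay below Ifi214 (18.5 ± 0.41 RPKM). Per GENCODE exon length, Aim2 lay above Ifi214 in both STAT3KO groups. Summed over the 10 genes, CD4 T cells held 292 ± 4.23 RPKM (WT) and 554 ± 41.3 RPKM (STAT3KO), and CD8 T cells 211 ± 2.93 RPKM (WT) and 404 ± 9.17 RPKM (STAT3KO) (SD, n = 2). Mndal contributed between 28.4% and 35.5% of this sum in each library. Aim2 contributed 7.37% and 10.5% of it in WT CD4 T cells and 3.06% and 3.02% in STAT3KO CD4 T cells. In counts, the 10 genes together took between 0.0648% and 0.0908% of a WT library and between 0.132% and 0.187% of a STAT3KO library.

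**Figure D2:**
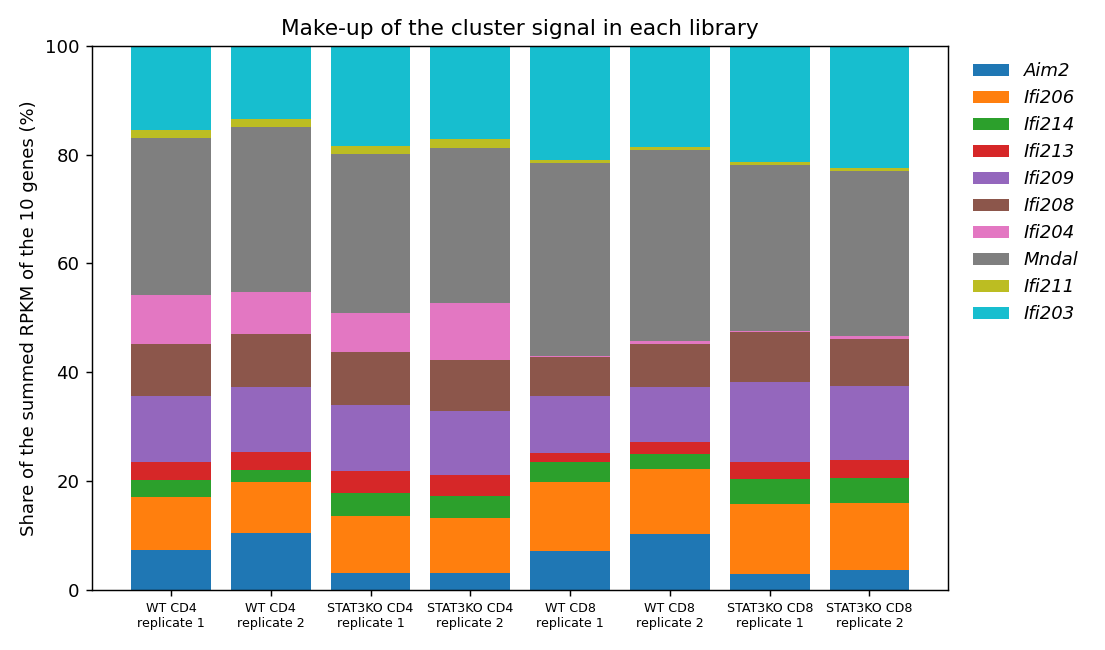
Share of each gene in the summed RPKM of the 10 genes, as stacked bars of 100% for each of the 8 libraries. Mndal and Ifi203 were the largest parts, Ifi204 took 7.22% to 10.5% in CD4 T cells and 0.198% to 0.617% in CD8 T cells, and the part of Aim2 was smaller in STAT3KO than in WT libraries.

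The effect of STAT3 deficiency was examined first in CD4 T cells. Of the 10 genes, 8 were called higher in STAT3KO than in WT CD4 T cells (edgeR quasi-likelihood test, adjusted p under 0.05 over all genes), where 6.54% of all genes tested were called higher. These calls describe the contrast by which the genes were chosen and support nothing further. The median log2 fold change of the 10 genes was 1.06, against 0.017 over all genes. Ifi204 and Aim2 were not called by edgeR or DESeq2 fitted with group means alone, and Aim2 was the only one of the 10 genes with a lower mean in STAT3KO T cells.

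Ifi203 and Mndal were the genes with the highest RPKM. Ifi203 had 225 and 189 CPM in the WT and 476 and 498 CPM in the STAT3KO libraries, a log2 fold change of 1.24 (SE 0.12). Mndal had 164 and 165 CPM in the WT and 295 and 324 CPM in the STAT3KO libraries, a log2 fold change of 0.91 (SE 0.098). For both genes the STAT3KO libraries lay above the WT libraries.

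Ifi206, Ifi208 and Ifi213 share stretches of sequence with one another. Ifi206 had 103 and 94.8 CPM in the WT and 200 and 218 CPM in the STAT3KO libraries. Ifi208 had 83.8 and 83.5 CPM in the WT and 154 and 169 CPM in the STAT3KO libraries. Ifi213 had 73.1 and 73.2 CPM in the WT and 165 and 179 CPM in the STAT3KO libraries. The groups did not overlap for any of these genes, and the log2 fold changes were 1.08 (SE 0.099), 0.95 (SE 0.11) and 1.23 (SE 0.12).

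Ifi209 and Ifi214 share stretches of sequence with each other, as Ifi211 does with Ifi204. Ifi209 had 128 and 120 CPM in the WT and 226 and 246 CPM in the STAT3KO libraries, with a log2 fold change of 0.93 (SE 0.10). Ifi214 had 12.3 and 8.41 CPM in the WT and 29.2 and 30.8 CPM in the STAT3KO libraries, with a log2 fold change of 1.53 (SE 0.19). Ifi211 had 7.63 and 7.47 CPM in the WT and 15.4 and 19.1 CPM in the STAT3KO libraries, with a log2 fold change of 1.19 (SE 0.18). Again every STAT3KO library lay above both WT libraries, and Ifi211 was no longer called without STAT3KO CD4 replicate 2, which left 7 genes called.

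The DNA sensors with the best known roles were the genes not called. Ifi204 had 61.7 and 51.5 CPM in the WT and 88.0 and 145 CPM in the STAT3KO libraries, so the STAT3KO libraries were higher but far apart (log2 fold change 1.04, SE 0.41). Aim2 had 55.6 and 76.1 CPM in the WT and 41.3 and 45.8 CPM in the STAT3KO libraries, with a log2 fold change of -0.60 (SE 0.22). Single libraries moved both values, from 0.64 (without STAT3KO CD4 replicate 2) to 1.33 for Ifi204 and from -0.83 to -0.36 (without WT CD4 replicate 2) for Aim2. Counted by overlap alone, 9 genes had both STAT3KO CD4 libraries above both WT libraries, as did 28.5% of all genes. Aim2 had both below, as did 25% of all genes.

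**Figure D3:**
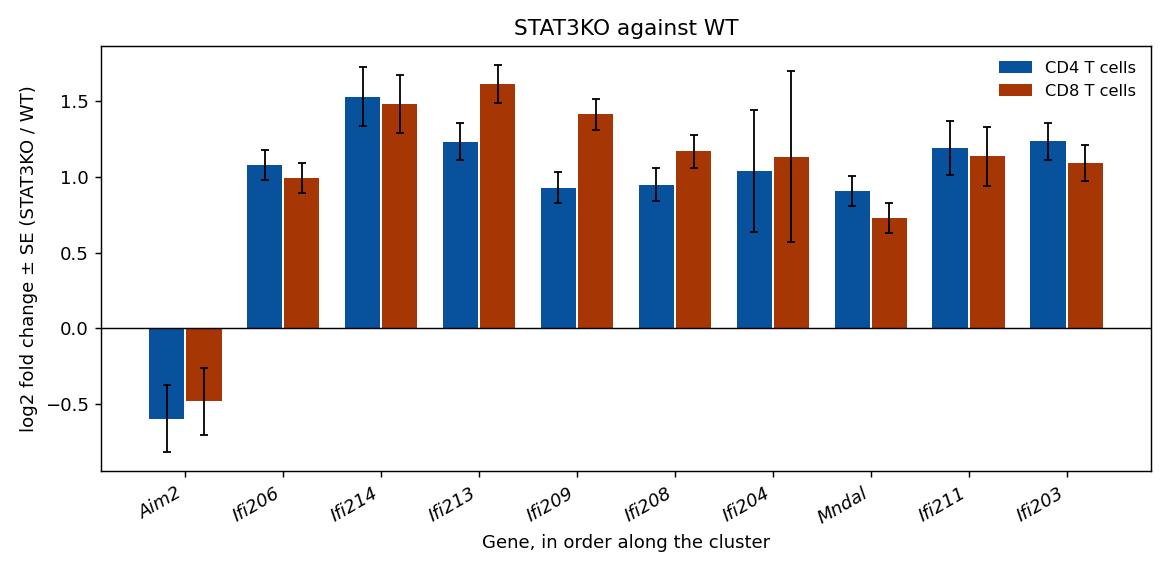
log2 fold change of STAT3KO against WT with its standard error (edgeR, 2 libraries in each group), for CD4 and CD8 T cells, with the genes in order along the cluster. The bars lie between 0.73 and 1.62 for 9 genes and at -0.60 and -0.48 for Aim2, and the widest standard errors are those of Ifi204.

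In CD8 T cells, 8 genes were also called higher in STAT3KO than in WT, and they were the genes called in CD4 T cells. Here 1.34% of all genes tested were called higher. The median log2 fold change of the 10 genes was 1.14, against -0.0071 over all genes. The number called fell to 3 without WT CD8 replicate 1 or WT CD8 replicate 2, and to 2 without STAT3KO CD8 replicate 1 or STAT3KO CD8 replicate 2. Over all genes the share called in either direction fell from 2.07% to 0.266%, 0.0867%, 0.0548% and 0.0629% in the same 4 fits. The log2 fold changes of the 8 genes stayed between 0.70 (Mndal) and 1.77 (Ifi213) in them, with 1.03 to 1.15 for Ifi203 and 0.95 to 1.02 for Ifi206. Ifi209 and Ifi213 were called in each of these 4 fits, in which the remaining library of a group is assumed to vary like the other groups.

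Ifi213 and Ifi209 had log2 fold changes of 1.62 (SE 0.12) and 1.42 (SE 0.10) in CD8 T cells. Ifi213 had 29.2 and 36.05 CPM in the WT and 96.2 and 104 CPM in the STAT3KO libraries. Ifi209 had 76.4 and 76.8 CPM in the WT and 215 and 194 CPM in the STAT3KO libraries. For both the groups were well apart. Ifi214 had 9.60 and 7.83 CPM in the WT and 24.5 and 24.2 CPM in the STAT3KO libraries (log2 fold change 1.48, SE 0.19).

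Ifi208 had 45.0 and 52.1 CPM in the WT and 113 and 106 CPM in the STAT3KO libraries (log2 fold change 1.17, SE 0.11). Ifi206 had 94.5 and 91.5 CPM in the WT and 190 and 180 CPM in the STAT3KO libraries (0.99, SE 0.099). Ifi203 had 214 and 197 CPM in the WT and 433 and 446 CPM in the STAT3KO libraries (1.09, SE 0.12). Each of these genes had separate groups. Mndal had 142 and 145 CPM in the WT and 241 and 236 CPM in the STAT3KO libraries (0.73, SE 0.098), the smallest shift among the genes called. Ifi211 was low throughout, with 2.03 and 1.77 CPM (47 and 42 counts) in the WT and 3.95 and 4.42 CPM (82 and 98 counts) in the STAT3KO libraries (1.14, SE 0.20).

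Ifi204 was close to the low end of the counts in CD8 T cells. It had 22 and 66 counts in the WT and 50 and 128 counts in the STAT3KO libraries, and the groups overlapped (log2 fold change 1.13, SE 0.56). This value was 0.35 without STAT3KO CD8 replicate 2, and with the WT CD8 libraries left out singly it was 0.56 (replicate 1) and 2.10 (replicate 2). Aim2 had 38.2 and 56.8 CPM in the WT and 31.0 and 36.9 CPM in the STAT3KO libraries, with STAT3KO libraries below WT libraries (-0.48, SE 0.22), a value that became -0.75 when WT CD8 replicate 1 was left out and -0.18 when replicate 2 was. Both STAT3KO CD8 libraries lay above both WT CD8 libraries for 8 genes, as for 24.9% of all genes, and below for Aim2, as for 24.8% of all genes.

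The STAT3KO effect itself was compared between the lineages through the interaction term. No gene was called at an adjusted p under 0.05 in edgeR, neither among the 10 genes nor among all genes (0%), while DESeq2 called 0 of the 10 and 1.83% of all genes. Among the 10 genes, 1 (Ifi209) had an unadjusted p under 0.05, as did 7.90% of all genes. For the 10 genes these counts are a description, because the term is built from both contrasts by which the genes were chosen. The difference in log2 fold change, CD8 minus CD4, ranged from -0.18 (SE 0.14) for Mndal to 0.49 (SE 0.14) for Ifi209, and it was 0.38 (SE 0.17) for Ifi213. The comparison does not show that the effects in the lineages were alike.

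The lineages were compared within each genotype. The genes were chosen for STAT3KO against WT rather than for this contrast, but with earlier results of these data known. The same libraries enter both contrasts, so the p-values given here are not those of an independent test. In WT T cells, 5 of the 10 genes were lower in CD8 than in CD4 T cells and none was higher by edgeR, by DESeq2 or at an unadjusted p under 0.05, while 11.6% of all genes tested were called lower. Ifi204, encoding p204, fell most, by 4.91 on the log2 scale (SE 0.53, edgeR adjusted p = 0.000649), from 61.7 and 51.5 CPM to 0.951 and 2.78 CPM. Ifi211 fell by 1.99 (SE 0.19, adjusted p = 0.000434), from 7.63 and 7.47 CPM to 2.03 and 1.77 CPM. In both genes the lineages were far apart compared with the replicates. Ifi211 shares 29.8% of its words with Ifi204, and what part reads of Ifi204 had in its counts was not tested.

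Ifi213 was lower in WT CD8 T cells by a log2 fold change of -1.17 (SE 0.12, edgeR adjusted p = 0.000625), Ifi208 by -0.78 (SE 0.11, adjusted p = 0.00198) and Ifi209 by -0.69 (SE 0.10, adjusted p = 0.00247). All 5 calls were made again in each of the 8 fits that left out 1 library. Ifi203 had a log2 fold change of -0.0069 (SE 0.12) with overlapping lineages, and Ifi206 of -0.086 (SE 0.098), a shift smaller than its standard error. Mndal (-0.20, SE 0.098), Ifi214 (-0.25, SE 0.20) and Aim2 (-0.47, SE 0.22) were not called either. The CD8 libraries lay below both CD4 libraries for 7 genes, as for 30% of all genes.

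In STAT3KO T cells, 5 genes were likewise lower in CD8 T cells, where 6.67% of all genes tested were called lower. Ifi204 had a log2 fold change of -4.82 (SE 0.50, edgeR adjusted p = 0.00155), Ifi211 of -2.04 (SE 0.18, adjusted p = 0.000982) and Ifi213 of -0.78 (SE 0.12, adjusted p = 0.00656). Ifi208 had -0.56 (SE 0.11, adjusted p = 0.0149) and Mndal -0.38 (SE 0.098, adjusted p = 0.0446). The CD8 libraries lay below both CD4 libraries for all 10 genes, as for 28.7% of all genes. The number called fell to 3 without STAT3KO CD4 replicate 1, STAT3KO CD4 replicate 2 or STAT3KO CD8 replicate 2, and to 2 without STAT3KO CD8 replicate 1, where the share of all genes called in either direction fell from 12.5% to between 3.57% and 5.07%. Ifi204 and Ifi211 were called in each fit with 1 library left out, and the call of Mndal was lost in each of them.

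**Figure D4:**
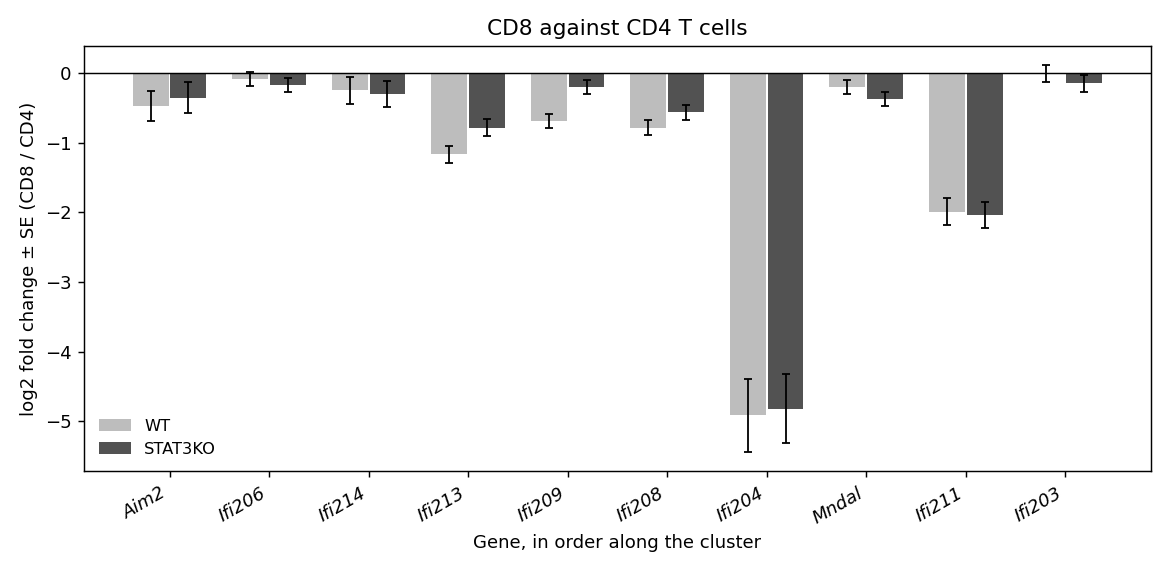
log2 fold change of CD8 against CD4 T cells with its standard error (edgeR, 2 libraries in each group), within WT and within STAT3KO T cells. Ifi204 lies near -5 and Ifi211 near -2 in both genotypes, while Ifi203 and Ifi206 lie within 0.2 of 0.

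The low level of Ifi204 in CD8 T cells was unequal between replicates, and so was Cd4, which the sorted CD8 cells should lack. As a percentage of the CD4 mean of the same genotype, Ifi204 stood at 1.68% and 4.91% in the WT CD8 libraries and at 2.07% and 4.97% in the STAT3KO CD8 libraries (replicates 1 and 2). Cd4 stood at 0.0736% and 0.469% in WT CD8 and at 0.103% and 0.514% in STAT3KO CD8 libraries. Ifi204 was thus higher than Cd4 on this scale in each of these libraries, and both were higher in replicate 2. Without WT CD8 replicate 2, the log2 fold change of Ifi204 between the WT lineages was -5.90 (edgeR adjusted p = 0.00151). Without STAT3KO CD8 replicate 2, it was -5.59 between the STAT3KO lineages (adjusted p = 0.00834).

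Markers of other cells were read beside these results. The 8 T cell markers summed to between 5150 and 6532 CPM in a library. The 10 markers of monocytes and macrophages, cells in which Ifi200 genes are also known to be expressed, summed to 59.2 and 84.5 CPM (WT) against 101 and 167 CPM (STAT3KO) in CD4 libraries. In CD8 libraries the sums were 156 and 218 CPM (WT) against 192 and 236 CPM (STAT3KO). None of the 10 was at 0 in both libraries of a group. Itgam took 22.2 to 136 CPM and Cd68 8.85 to 49.3 CPM of these sums.

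The other 8 macrophage markers summed to 9.13 and 12.2 CPM in replicate 1 of the CD4 groups (WT, then STAT3KO) and 5.71 and 10.9 CPM in replicate 1 of the CD8 groups, but to 45.1, 67.6, 76.0 and 69.2 CPM in the replicate 2 libraries in the same order. The replicate 2 libraries therefore stood apart. In the replicate 1 libraries alone, a comparison chosen after seeing the data and with no test, 9 of the 10 genes were higher in STAT3KO than in WT in either lineage, with a median log2 ratio of 0.92 for CD4 and 1.17 for CD8 libraries. All 10 genes were lower in CD8 than in CD4 replicate 1 libraries in both genotypes, with a log2 ratio of -6.02 for Ifi204 in WT. In these libraries the sum of the 8 markers was also higher in STAT3KO than in WT. The STAT3KO values repeat the contrast by which the genes were chosen. What part monocytes and macrophages had in the levels was not tested.

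The remaining marker lists were read in the same way. The 6 B cell markers summed to 17.9 and 11.1 CPM in the WT and 2.60 and 3.29 CPM in the STAT3KO libraries of CD4 T cells. Pax5 alone made up 16.9 and 9.59 CPM of the former sums. In CD8 T cells the B cell sums lay between 12.6 and 13.4 CPM in both genotypes. The 6 dendritic cell markers summed to 14.7 to 16.8 CPM in CD4 and 163 to 275 CPM in CD8 libraries, of which Itgax took 162 to 274 CPM, while Clec9a and Siglech were at 0 in all 8 libraries. NK cell markers (14.3 to 26.5 CPM), neutrophil and progenitor markers (3.05 to 19.7 CPM) and erythroid markers (0.289 to 5.46 CPM) were low. Their part in the members' values was not tested.

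The adaptors and enzymes that act with these sensors were read from lists that were drawn up with earlier results of these data known. Of 12 tested genes of DNA sensing and the STING pathway, 3 were called higher and none lower in STAT3KO CD4 T cells (median log2 fold change 0.049), where 6.54% of all genes were called higher and 5.08% lower. These were Rnaseh2b, a subunit of a nuclease that removes RNA from hybrids with DNA (0.79, SE 0.16), Zbp1, a sensor of left-handed nucleic acids (0.52, SE 0.12), and Samhd1, which degrades deoxynucleotides (0.49, SE 0.11). Tmem173, encoding STING, had -0.22 (SE 0.13) in the CD4 comparison and -0.074 (SE 0.13) in the CD8 comparison. In STAT3KO CD8 T cells edgeR called 0 of the 12 genes and DESeq2 called 2, where they called 2.07% and 7.89% of all genes. Here 3 of the 12 had an unadjusted edgeR p under 0.05, a share not worked out over all genes. The CD4 count was 1 without WT CD4 replicate 1, WT CD4 replicate 2 or WT CD8 replicate 1, and 0 without STAT3KO CD4 replicate 1 or STAT3KO CD4 replicate 2.

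Of 9 tested inflammasome genes, 2 were called higher and 1 lower in STAT3KO CD4 T cells (median 0.70), against the same 6.54% and 5.08% of all genes. Pycard, the adaptor that joins AIM2 to caspase-1, had a log2 fold change of 0.86 (SE 0.12), and Casp1, the protease itself, of 0.70 (SE 0.10). The estimate for Aim2 had the opposite sign. Nlrc4, a sensor of another inflammasome, fell by 1.57 (SE 0.39). In CD8 T cells, where 1.34% of all genes were called higher and 0.732% lower, 1 gene was called, Casp1 (0.65, SE 0.11), and Pycard had 0.40 (SE 0.12). Without STAT3KO CD4 replicate 2, 1 gene was called higher in CD4 T cells. The call of Nlrc4 was lost without any 1 of the 4 CD4 libraries or of the STAT3KO CD8 libraries. That of Casp1 in CD8 T cells was lost without any 1 of the CD8 or STAT3KO CD4 libraries.

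Of 15 tested genes of interferons, their receptors and their signalling, 2 were called higher and 3 lower in STAT3KO CD4 T cells (median 0.14), beside 6.54% and 5.08% of all genes. Irf9, a transcription factor of the interferon response, was called higher, with a log2 fold change of 0.60 (SE 0.13). Socs3, a feedback inhibitor of cytokine signals and a known target of STAT3, fell by 1.65 (SE 0.23), Ifnar2, a chain of the type I interferon receptor, by 0.89 (SE 0.16), and Socs1, another feedback inhibitor, by 0.87 (SE 0.21). In CD8 T cells 2 were called higher, among them Usp18 (1.39, SE 0.26), and Socs3 (-1.41, SE 0.23) was called lower. Without WT CD4 replicate 2, STAT3KO CD4 replicate 1 or STAT3KO CD4 replicate 2, the CD4 counts were 0 higher and 1 lower. Without any 1 of the CD8 libraries the CD8 counts were 0 and 0. Without either STAT3KO CD4 library no gene was called higher in CD8 T cells, and without WT CD4 replicate 1 it was 1.

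Of 16 other interferon-induced genes, 7 were called higher in the STAT3KO CD4 libraries and 5 in the CD8 libraries, and none was called lower (higher over all genes: 6.54% and 1.34%). Their median log2 fold changes were 0.74 (CD4) and 0.79 (CD8). Irgm1, an immunity-related GTPase, had 1.06 (SE 0.12) in CD4 and 0.75 (SE 0.11) in CD8 T cells, and Xaf1 had 0.96 (SE 0.11) and 0.82 (SE 0.11). Ifi27l2a had 0.39 (SE 0.14) in CD4, where it was not called, and 1.67 (SE 0.15) in CD8 T cells. DESeq2 called 10 of these genes higher in each lineage, where it called 15.5% (CD4) and 7.89% (CD8) of all genes in either direction. In CD4 T cells the number was 2 without WT CD4 replicate 1, WT CD4 replicate 2 or STAT3KO CD4 replicate 2, and 4 without either STAT3KO CD8 library. In CD8 T cells it was 1 without WT CD8 replicate 1 or STAT3KO CD8 replicate 2, and 0 without WT CD8 replicate 2 or STAT3KO CD8 replicate 1.

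The genes whose pattern was most like that of the members were sought outside the family. The likeness was Pearson's r over the 8 libraries between a gene's log2 CPM and the mean of the members' standardised log2 CPM, a description in which the libraries fall into 4 groups. Among the 5 genes with the highest r were Irgm2 (chromosome 11, r = 0.995), Gbp6 (chromosome 5, 0.994), Gigyf2 (chromosome 1, 0.992) and Smurf2 (chromosome 11, 0.991). Irgm2 and Gbp6 encode interferon-induced GTPases. Among CD4 libraries Gbp6 had 24.8 and 28.02 CPM (WT) and 89.9 and 124 CPM (STAT3KO), and among CD8 libraries 7.43 and 12.8 CPM in the WT and 37.95 and 45.0 CPM in the STAT3KO libraries. Of the members, Ifi213 (0.996) and Ifi208 (0.995) were closest to this mean, to which each contributed, Ifi204 had 0.730 and Aim2 had -0.207.

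Genes beside the cluster were read as a check on the region. Within 1000000 bases of the members on either side the table held 40 other gene rows, of which 3 were tested (Tagln2, Dusp23 and Cadm3). By edgeR and by DESeq2, 0 of the 3 were called in either STAT3KO comparison, and 1 (Cadm3, in CD4 T cells) had an unadjusted edgeR p under 0.05. With so few genes tested, the region around the cluster was hardly measured. Cadm3 had log2 fold changes of 1.63 (SE 0.52, CD4) and 0.76 (SE 0.50, CD8), the sign of most members. Dusp23 had -0.16 (SE 0.40, CD4) and 0.063 (SE 0.39, CD8). Both were low, with a mean log2 CPM of 0.72 (Cadm3) and 0.80 (Dusp23). Tagln2, an actin-binding protein, had log2 fold changes of 0.11 (SE 0.12, CD4) and -0.24 (SE 0.12, CD8), and was higher in WT CD8 than in WT CD4 T cells (0.68, SE 0.12, edgeR adjusted p = 0.00586).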

How the data were processed

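The authors aligned reads to mm10 with STAR and counted them per RefSeq gene with HTSeq. They deposited read counts and RPKM for 25078 gene rows. The study's methods name a stranded mRNA kit. The labels name another kit and describe an unrelated cell line in their growth and treatment fields, and the strand setting of the counting is not given in the sources used here.

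The counts were filtered by filterByExpr (minimum count 10), scaled by TMM (factors 0.982 to 1.03) and fitted for all 8 libraries, with a mean for each group, by the edgeR 4.0.16 quasi-likelihood test in R 4.3.3. Calls are two-sided, at a Benjamini-Hochberg adjusted p under 0.05 over 12428 genes. Standard errors came from the F statistic. CPM are TMM-scaled, and RPKM are as deposited and served for levels between genes. The labels do not say that replicates came from separate experiments, so p-values measure the spread between these pooled samples, which may be technical. Library sizes behind the RPKM were 0.989 to 1.05 times the column totals.

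The alternatives were DESeq2 1.42.0, RLE and total-count scaling, no filter, a replicate block, limma 3.58.1 on log2(RPKM + 1), only the libraries compared, and leaving out each library. The fit was also run on simulated data, in which libraries varied independently and shared no effect of replicate number. Its outcome is not reported here and lends no weight to the calls.

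The members and lists were chosen with earlier results of these data known. Named genes were Stat3, the 10 members, the most abundant and the most changed called genes of each list, up to 3 neighbours, and the 5 genes most alike, of which some results are not reported here; Gbp6 is shown in full as an example chosen after its values were seen.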

Additional observations from a re-analysis of the deposited data

How the results depend on the processing

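With 2 pooled libraries in each group, the number of calls in CD8 T cells and between STAT3KO lineages depended on single libraries, over all genes as among the members. Over the fits that left out 1 library, the number of the 10 genes called ranged from 7 to 8 for STAT3KO against WT in CD4 T cells, from 2 to 8 in CD8 T cells, and from 2 to 4 for CD8 against CD4 in STAT3KO T cells. Without 1 CD8 library, 0.0548% to 0.266% of all genes were called in the CD8 comparison, and the log2 fold changes of the 8 members called in it lay between 0.70 and 1.77. The number of members called was 5 throughout for CD8 against CD4 in WT T cells and 0 throughout for the difference between lineages. DESeq2 called 8, 8, 0, 5 and 5 of the 10 genes in the 5 comparisons. Over all genes the shares it called were 15.5%, 7.89%, 1.83%, 25.4% and 16.2%. The order is STAT3KO against WT in CD4 and in CD8 T cells, their difference, and CD8 against CD4 in WT and in STAT3KO T cells. For STAT3KO against WT in CD8 T cells, 2.07% of all genes were called by edgeR and 7.89% by DESeq2. Fits to only the 4 libraries compared called 6 members and 0.307% of all genes in CD8 T cells; they called 1 gene of DNA sensing in CD4 T cells, 1 other interferon-induced gene in CD8 T cells and 0 genes of the inflammasome and interferon signalling lists there. In the 2 STAT3KO comparisons no alternative turned the direction of a member or of Stat3. Between WT lineages Ifi203 turned from -0.0069 to 0.00765 with only the 4 libraries compared, and ranged from -0.14 to 0.11 without 1 library, while Ifi214 ranged from -0.52 to 0.034; neither was called. The cause was not tested.

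The replicate numbers did not come with a statement that they mark a shared batch (the titles number the replicate 1 libraries in one run and the replicate 2 libraries in another, without saying what the run is), and each comparison holds 2 numbers. The study's methods speak of batches for its T cell receptor data, without tying these numbers to them. Deviations of libraries with the same number from their group means correlated with r of 0.424 to 0.671 across genes, for each pair of groups. With the replicate block, 10, 9, 0, 6 and 6 genes were called in the 5 comparisons, with 30.1%, 18.2%, 3.24%, 42.1% and 29.7% of all genes. The genes added in the STAT3KO comparisons were Ifi204 (higher, CD4) and Aim2 (lower, CD4 and CD8), and Aim2 was also added, lower in CD8, in both lineage comparisons. Of the list counts, that of other interferon-induced genes called higher became 14 in CD4 and 12 in CD8 T cells with the block.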

Other observations

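Other genes of the cluster were read beside the members. Of 13 gene symbols looked up for them, 3 had a row (Ifi202b, Ifi205 and Ifi207). The symbols were matched exactly, and whether some without a row are older names of the members was not checked. Of the 3 genes with a row, 2 were tested, and 0 were called by edgeR or DESeq2, or had an unadjusted edgeR p under 0.05, in the STAT3KO comparisons. Ifi205 had 0 to 6 counts in a library. In CD4 T cells Ifi207 had 11 and 87 counts (WT, replicates 1 and 2) and 17 and 127 counts (STAT3KO), and in CD8 T cells 9 and 237 counts (WT) and 12 and 178 counts (STAT3KO). Ifi202b had 6 and 7, 8 and 47, 2 and 47, and 7 and 56 counts in the same order. Both were thus higher in replicate 2 of each group, as were the macrophage markers C1qa (1.60 and 13.3, 3.10 and 17.4, 1.04 and 22.2, and 2.36 and 16.6 CPM) and Csf1r (1.95 and 11.4, 2.55 and 14.2, 0.562 and 18.1, and 1.78 and 16.01 CPM). Ifi202b differed by 1 count in WT CD4 T cells.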
